A study of Mus musculus with 12 samples.

Results

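The mRNA levels of 10 genes of the ATF4 amino acid stress pathway (Atf4, Atf5, Ddit3, Asns, Chac1, Trib3, Sesn2, Psat1, Phgdh and Ddit4) were followed in bone marrow-derived dendritic cells (BMDCs) with and without a conditional knockdown of the β2 integrin chain CD18. The genes were chosen by name, 10 of 41709 in the deposited count tables. 9 were found by symbol. Ddit3 was matched by its gene ID (ENSMUSG00000025408), since the tables list that symbol under 2 gene IDs, of which the other had 0 reads in all 12 libraries. BMDCs were grown from mouse bone marrow in GM-CSF for 10 days, and MHCII+ cells were isolated magnetically before RNA-seq. The 4 groups of 3 libraries each were unstimulated CD18fl/fl BMDCs, CD18fl/fl BMDCs exposed to LPS (100 ng/mL, 24 h), and both states of CD18CD11c cKO BMDCs (genotype label CD18-delta-CD11c). All mice carried the floxed CD18 allele, and the cKO carried in addition a Cre recombinase driven by the CD11c promoter, so that the allele is deleted only in cells that use this promoter. LPS is a bacterial cell wall component sensed by TLR4. The labels give no ages and do not say whether the 3 libraries of a group came from separate mice or cultures, so the p-values measure the spread between these libraries.

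ATF4 is a basic leucine zipper (bZIP) transcription factor. When amino acids run short or unfolded protein accumulates, kinases phosphorylate the initiation factor eIF2α. General translation then falls while the Atf4 mRNA is translated more, so that much of the control of ATF4 lies at the protein level, which mRNA counts do not show. ATF4 switches on genes for amino acid synthesis and uptake, for damping mTORC1, and, under lasting stress, for cell death. In dendritic cells, TLR ligands are known to engage branches of the same stress response.

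ATF4 binds its targets as a dimer with C/EBP family members at composite sites with the core TGATGNAA. This motif was searched on both strands of the RefSeq promoter windows (250 bases before to 50 after the start). The windows were given for GRCm38.p6, and each member's window was placed by an exact match in the GRCm39 genome. All 10 members had at least 1 window, 12 in all, and 3 windows held the motif, against 3.97% of all 32851 windows. Those 3 stretches, of Asns, Chac1 and Trib3, are shown because they hold the motif. Capitals mark the motif, on the strand of the gene, 5′ to 3′.
Asns (chr6:7693210-7693258, minus strand, motif from base -23): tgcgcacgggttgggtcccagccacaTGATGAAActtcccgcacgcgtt
Chac1 (chr2:119181504-119181563, plus strand, motif from base -193): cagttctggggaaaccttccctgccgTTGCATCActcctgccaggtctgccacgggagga
Trib3 (chr2:152185948-152185977, minus strand, motif from base 15): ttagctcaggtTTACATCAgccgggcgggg
In Asns the motif reads as spelled, in Chac1 and Trib3 as its reverse complement (TTNCATCA). A match of letters is a description, and binding was not measured. The other 7 members had no match within these windows.

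Total gene reads ranged from 29689149 to 34037178 per library. Levels are given as CPM (reads of a gene per 1000000 reads of the library, scaled by TMM to correct for differences in library composition), and a floor of 3 reads equaled at most 0.101 CPM before scaling. Such a floor covers counting error only, while the SDs and SEs given below cover the spread between libraries. Itgb2, which encodes CD18, had 393.7 ± 23.0 CPM (SD, n = 3) in unstimulated CD18fl/fl and 158 ± 34.8 CPM in unstimulated cKO BMDCs, with no overlap between the groups. After LPS it had 202 ± 56.3 CPM and 108 ± 15.6 CPM. The replicate 3 libraries of all 4 groups stood apart from replicates 1 and 2, and deviations from group means went with the replicate number across genes. Each comparison is therefore given by edgeR without a block, with the replicate number as a block, and for replicates 1 and 2 alone, the last chosen after the values were seen. The dendritic cell markers listed, among them Itgax, Flt3 and the MHC class II genes, were detected in every group, and their summed level was 13693 to 35799 CPM per library. 0 of 12 of these markers had 0 reads throughout a group.

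Relative to transcript length, the 10 genes spanned a wide range. Per kilobase of exon, unstimulated CD18fl/fl BMDCs had 58.1 ± 20.2 CPM of Atf4, 36.2 ± 11.99 of Atf5, 34.4 ± 10.5 of Ddit4 and 26.3 ± 27.1 of Ddit3 (SD, n = 3). Sesn2 followed with 12.8 ± 2.00, Trib3 with 11.5 ± 18.4, Psat1 with 9.72 ± 6.39, Phgdh with 4.74 ± 4.68 and Asns with 4.72 ± 6.06 CPM per kilobase, and Chac1 was lowest with 0.894 ± 1.22. The ranges of mean ± SD of neighbors in this order overlapped. After LPS, Ddit4 (143 ± 99.3), Atf4 (113 ± 55.4) and Ddit3 (102 ± 64.4) headed the order in CD18fl/fl BMDCs, again with overlapping spreads. The same 3 genes led in LPS-treated cKO BMDCs, with 84.9 ± 55.1 (Ddit4), 104 ± 67.8 (Atf4) and 73.8 ± 33.6 (Ddit3) CPM per kilobase.

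**Figure D1:**
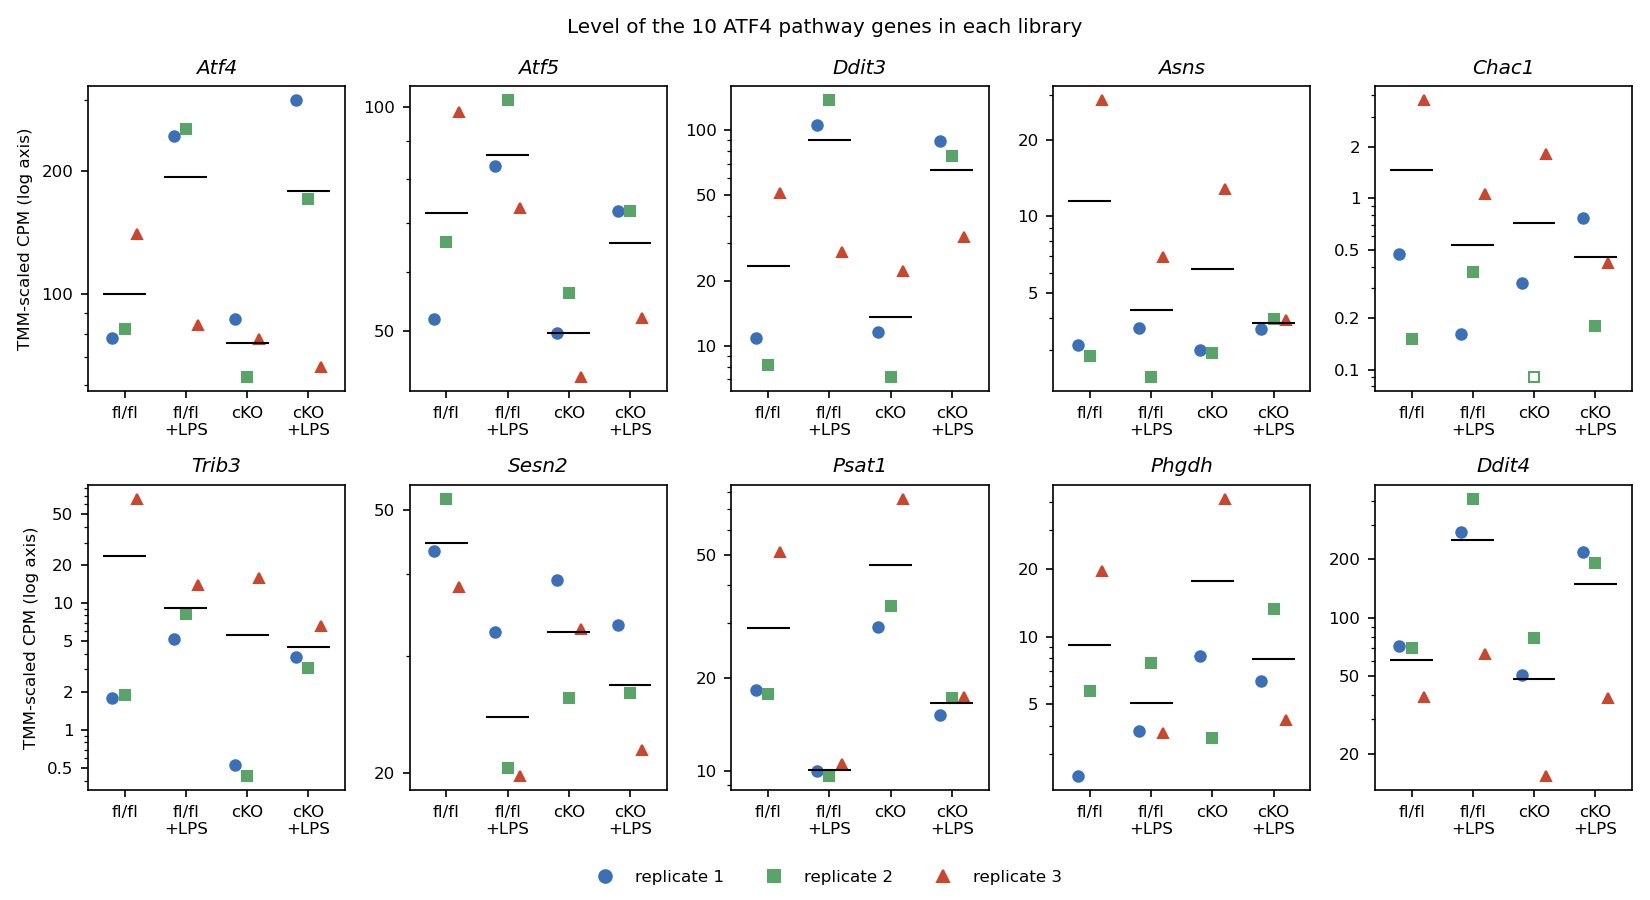
TMM-scaled CPM (log axis) of each of the 10 genes in each of the 12 libraries, by group (fl/fl, CD18fl/fl; cKO, CD18CD11c cKO). Symbols mark the replicate number, black lines the group means, and the open square of Chac1 a library with 0 reads. Replicate 3 of both unstimulated groups lies highest in its group for Ddit3, Asns, Chac1, Trib3, Psat1 and Phgdh.

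In unstimulated BMDCs of both genotypes, replicate 3 had far more mRNA of the amino acid synthesis and feedback genes than replicates 1 and 2. This pattern is described first, since those libraries enter every comparison below except that between the LPS-treated genotypes. The fits of replicates 1 and 2 alone leave them out. Trib3 encodes a pseudokinase that binds ATF4 and limits its activity. Its level in unstimulated CD18fl/fl BMDCs was 1.78, 1.88 and 66.3 CPM in replicates 1, 2 and 3, and in unstimulated cKO BMDCs 0.534, 0.434 and 15.7 CPM. Replicate 3 thus exceeded the mean of the other two libraries 36.2-fold and 32.5-fold, respectively. Asns encodes asparagine synthetase, which makes asparagine from aspartate and glutamine. Its levels were 3.14, 2.83 and 28.7 CPM in CD18fl/fl and 2.99, 2.90 and 12.8 CPM in cKO BMDCs. Replicates 1 and 2 lay close together in both genotypes, and replicate 3 was 9.61-fold and 4.35-fold above their mean.

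Chac1 encodes an enzyme that degrades glutathione. It was covered by few reads, with 17, 6 and 141 reads in unstimulated CD18fl/fl and 9, 0 and 63 reads in unstimulated cKO BMDCs, equal to 0.472, 0.150 and 3.77 CPM and to 0.320, 0 and 1.82 CPM. Here, too, replicate 3 was the only library of its group above 1 CPM. Phgdh and Psat1 encode enzymes of the first steps of serine synthesis from a glycolytic intermediate. Phgdh had 2.39, 5.74 and 19.6 CPM in CD18fl/fl and 8.22, 3.53 and 41.2 CPM in cKO BMDCs. The replicate 3 libraries were highest by 4.81-fold and 7.01-fold over the mean of replicates 1 and 2. For Psat1 the excess was smaller, 2.83-fold and 2.39-fold.

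Not all members shared this direction. Ddit3, which encodes the transcription factor CHOP, was also highest in replicate 3 (5.38-fold and 2.36-fold). Atf4 itself was 1.75-fold higher in replicate 3 of CD18fl/fl, but 1.04-fold in cKO BMDCs. Atf5, a related bZIP factor translated in a similar way, was at 1.67-fold and 0.818-fold. Ddit4 (RTP801, also called REDD1), which restrains mTORC1, was lower in replicate 3 of both genotypes, at 0.553-fold and 0.236-fold, and Sesn2 (Sestrin 2), a leucine-binding inhibitor of the same kinase complex, was at 0.801-fold and 1.02-fold.

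After LPS, the excess of replicate 3 was smaller or absent. On the log2 scale, replicate 3 minus the mean of replicates 1 and 2 was 5.13 (CD18fl/fl) and 4.86 (cKO) for Trib3 in unstimulated BMDCs, and 1.08 and 0.93 in LPS-treated BMDCs. For Asns it was 3.24 and 2.10 without LPS, and 1.23 and 0.05 with LPS. Atf4 turned around, at 0.81 and 0.08 without and -1.57 and -1.77 with LPS, as did Ddit3, at 2.43 and 1.28 without and -2.16 and -1.36 with LPS. Trib3 was higher and Ddit4 lower in replicate 3 of all 4 groups. Among all genes of the 12-library fit, 25.6% were higher in replicate 3 of all 4 groups, compared with 4 of the 10 members (Asns, Chac1, Trib3 and Psat1).

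**Figure D2:**
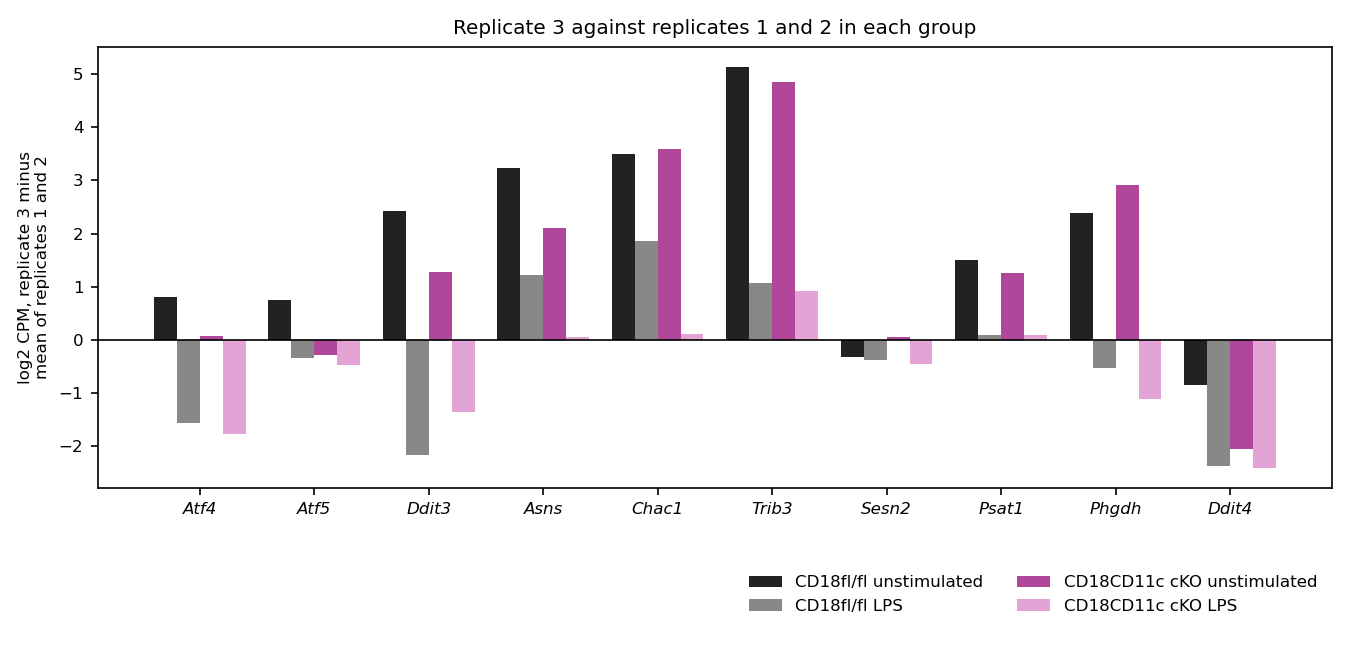
Log2 CPM of replicate 3 minus the mean of replicates 1 and 2 (y axis) for each gene (x axis), one bar per group of 3 libraries, so no error bars can be drawn. Bars of both unstimulated groups are high for Trib3 (5.13 and 4.86), Chac1, Asns and Phgdh, while Ddit4 is below 0 in every group.

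Other genes of the pathway and markers of other cells were also compared between replicate 3 and replicates 1 and 2. Of 34 other ATF4 target genes measured in the 12 libraries, 12 were higher and 7 lower in replicate 3 of all 4 groups, as were 3519 and 3139 of all 13752 genes. The share of targets that were higher was 35.3%, against 25.6% of all genes. The median log2 difference of the targets was 0.91 (CD18fl/fl) and 0.26 (cKO) in unstimulated BMDCs. In LPS-treated BMDCs it was -0.40 and -0.19. Of 23 genes for cytosolic aminoacyl-tRNA synthetases and their scaffold, which charge tRNAs with amino acids, 11 were higher and 1 lower, and of 22 amino acid transporters 9 were higher and 1 lower. By contrast, 4 of 34 genes of the amino acid and stress inputs to mTORC1 were higher and 13 lower. The lists of targets and of transporters share some genes. B cell markers were nearly lacking in replicate 3, with a summed level of 1.82 to 3.58 CPM, compared with 27.3 to 421 CPM in replicates 1 and 2, and 0 of 6 had 0 reads throughout a group. Neutrophil markers summed to 161 and 110 CPM in replicate 3 of unstimulated CD18fl/fl and cKO BMDCs, with 527 to 1720 CPM and 338 to 446 CPM in the other libraries of these groups. In unstimulated BMDCs the dendritic cell markers were also lowest in replicate 3 (13693 and 17647 CPM, with 21311 to 29843 CPM in replicates 1 and 2). The summed level of mast cell and basophil markers was higher in replicate 3 of every group, at 41.1 to 169 CPM against 14.3 to 52.1 CPM, although only 2, 3, 3 and 4 of the 6 markers measured were higher in replicate 3 of unstimulated and LPS-treated CD18fl/fl and of unstimulated and LPS-treated cKO BMDCs. In the cKO, erythroid markers summed to 15.0 and 23.6 CPM in replicate 3 and to 1.30 to 2.35 CPM in the other libraries. T and NK cell markers were lowest in replicate 3 of the unstimulated groups, at 10.3 CPM against 23.7 and 31.3 CPM in CD18fl/fl and 3.93 CPM against 35.2 and 18.1 CPM in cKO BMDCs, and lay between 1.70 and 4.39 CPM after LPS. Proliferation markers were highest in replicate 3 of unstimulated cKO BMDCs, at 286 CPM against 189 and 80.8 CPM, where 6 of 6 were higher, and of both LPS-treated groups, at 54.6 and 60.7 CPM against 31.1 to 33.6 CPM. In unstimulated CD18fl/fl BMDCs they were lowest there, at 44.8 CPM against 112 and 50.6 CPM. Their part in the levels of the members was not tested. In such bulk samples, fewer cells of a type and less RNA per cell cannot be told apart.

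To assess the response to LPS, treated and unstimulated libraries were compared within each genotype. In replicates 1 and 2 of both genotypes, LPS-treated BMDCs had more Atf4, Ddit3, Trib3 and Ddit4 mRNA and less Psat1 mRNA, while Asns differed little and replicate 3 went its own way for several of these genes. Over all 3 replicates without a block, 0 of 10 members passed the edgeR test in CD18fl/fl BMDCs, where 3.89% of all genes passed, and 0 of 10 in cKO BMDCs, where 3.99% passed. At an unadjusted p under 0.05 there were 3 of 10 members in each genotype. Over all genes there were 3034 of 12744 in CD18fl/fl and 2685 of 12687 in cKO BMDCs. DESeq2 called 2 of 10 members in CD18fl/fl and 2 of 9 tested in cKO BMDCs. Over all genes it called 1795 of 13989 and 1535 of 14202, respectively. With the replicate block, edgeR called 1 member in CD18fl/fl (12.8% of all genes) and 3 in cKO BMDCs (20.2%). Replicates 1 and 2 alone gave 7 of 10 in CD18fl/fl (47.5% of all genes) and 5 of 9 tested in cKO BMDCs (15.9%). In this last fit, the share of members was above that of all genes in both genotypes, a description without a test. Groups of 3 did not overlap for 2 members in CD18fl/fl (29.5% of all genes) and for 2 in cKO BMDCs (28.1%).

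Ddit4 was higher with LPS in all 6 same-numbered pairs. The share of all genes with the same sign in all 6 pairs was not counted. In CD18fl/fl BMDCs, Ddit4 (chr10:59785491-59787656, minus strand) had 72.1, 70.0 and 39.3 CPM without and 276, 411 and 64.9 CPM with LPS in replicates 1, 2 and 3. In cKO BMDCs, Ddit4 had 50.6, 78.7 and 15.3 CPM without and 218, 191 and 38.6 CPM with LPS. Each LPS library exceeded its same-numbered partner, but replicate 3 was low in every group, so that the groups overlapped. The log2 fold change was 2.05 ± 0.64 (SE; edgeR adjusted p = 0.12) in CD18fl/fl and 1.55 ± 0.74 (edgeR adjusted p = 0.28) in cKO BMDCs. With the replicate block Ddit4 rose in both, by 1.75 ± 0.38 (edgeR adjusted p = 0.037) and 1.52 ± 0.22 (edgeR adjusted p = 0.0058). Leaving out replicate 3 of the LPS-treated CD18fl/fl libraries gave 2.51 (edgeR adjusted p = 0.0086).

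Ddit3 showed the largest LPS differences of the 10 genes in replicates 1 and 2. In CD18fl/fl BMDCs, Ddit3 (chr10:127126643-127132157, plus strand) had 10.9, 8.13 and 51.2 CPM without and 106, 139 and 27.2 CPM with LPS. In cKO BMDCs, Ddit3 had 11.6, 7.17 and 22.2 CPM without and 89.2, 75.9 and 32.1 CPM with LPS. In CD18fl/fl BMDCs replicate 3 was lower with LPS than without, whereas in cKO BMDCs all LPS libraries lay above all unstimulated ones. Ddit3 differed by 1.96 ± 0.85 on the log2 scale in CD18fl/fl (edgeR adjusted p = 0.22) and by 2.20 ± 0.52 in cKO BMDCs (edgeR adjusted p = 0.062). It passed the test in cKO BMDCs with the replicate block (2.28 ± 0.54, edgeR adjusted p = 0.028) and without replicate 3 of either cKO group (2.75 without the unstimulated and 2.50 without the LPS-treated library). For replicates 1 and 2 alone, the rise was 3.68 ± 0.22 in CD18fl/fl and 3.03 ± 0.30 in cKO BMDCs (edgeR adjusted p = 3.1e-07 and 0.0038). The gene region of Ddit3 shares 68 bases with that of the antisense gene Mars1, which had 614 to 2245 reads per library. How much of this stretch is exon was not measured. The library kit named in the labels does not keep the strand, so that reads from this stretch cannot be assigned to one of both genes.

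The values of Atf4 followed the same pattern in both genotypes. In CD18fl/fl BMDCs, Atf4 (chr15:80139385-80141742, plus strand) had 78.2, 82.0 and 140.3 CPM without and 244, 254 and 84.0 CPM with LPS. In cKO BMDCs, Atf4 had 87.1, 62.6 and 77.8 CPM without and 299.6, 171 and 66.3 CPM with LPS. Replicates 1 and 2 were higher and replicate 3 was lower with LPS in each genotype. The log2 fold change over all 3 replicates was 0.96 ± 0.47 in CD18fl/fl (edgeR adjusted p = 0.26) and 1.17 ± 0.48 in cKO BMDCs (edgeR adjusted p = 0.22), and it did not pass with the block. Atf4 rose, when replicates 1 and 2 alone were fitted, by 1.63 ± 0.16 (edgeR adjusted p = 9.9e-06) and 1.55 ± 0.33 (edgeR adjusted p = 0.026). It also passed when only the LPS-treated replicate 3 library was left out (1.32 in CD18fl/fl and 1.55 in cKO BMDCs). Atf5 (chr7:44461680-44466082, minus strand) changed less. Its levels were 52.0, 65.9 and 98.5 CPM without and 83.5, 102 and 73.3 CPM with LPS in CD18fl/fl BMDCs. In cKO BMDCs, Atf5 had 49.7, 56.2 and 43.3 CPM without and 72.5, 72.5 and 52.1 CPM with LPS. Groups overlapped in both genotypes, and the log2 fold changes were 0.27 ± 0.30 and 0.35 ± 0.24, the former turning to -0.08 when libraries were scaled by size alone. In replicates 1 and 2 of CD18fl/fl BMDCs, the rise of 0.65 ± 0.18 passed the test (edgeR adjusted p = 0.011). The gene region of Atf5 overlaps 571 bases of that of Nup62 and 272 bases of that of Il4i1, both antisense. Il4i1 had up to 50617 reads per library. Reads from these stretches cannot be assigned with certainty, either, and how much of them is exon was not measured.

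**Figure D3:**
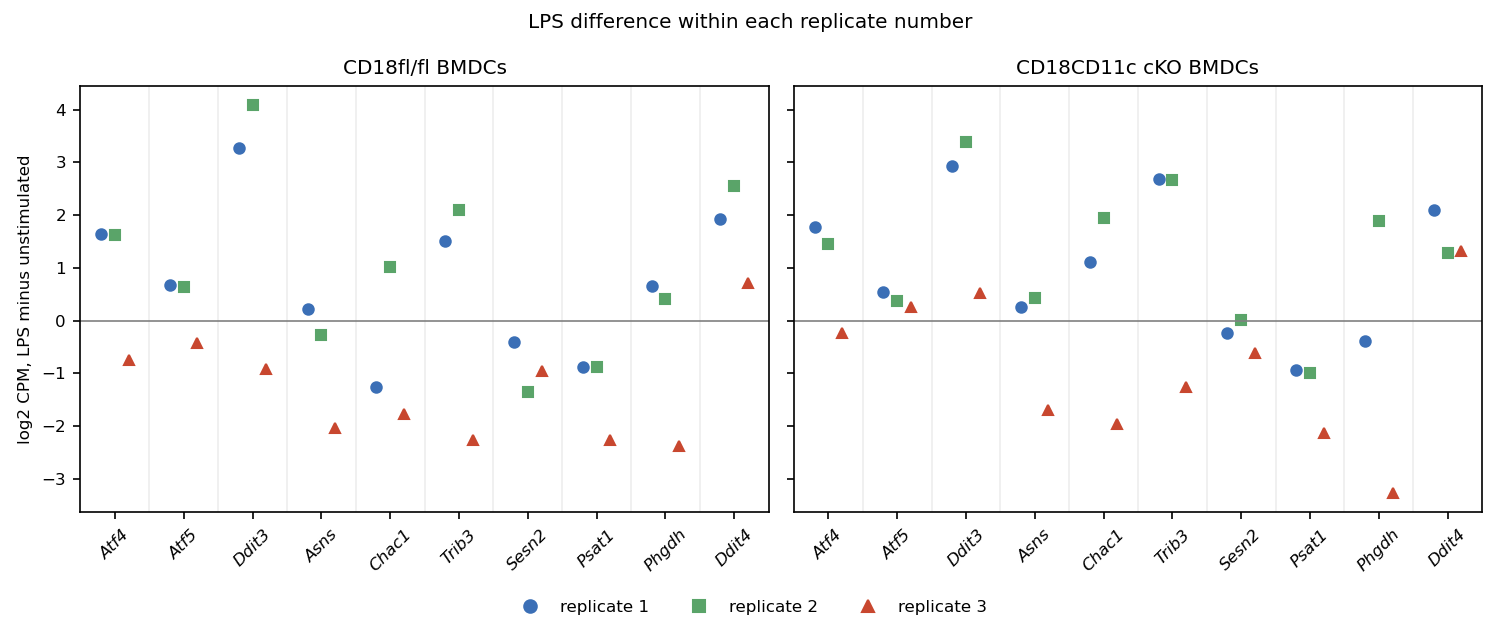
Log2 CPM of the LPS-treated minus the unstimulated library of the same replicate number (y axis) for each gene (x axis) in CD18fl/fl (left) and CD18CD11c cKO BMDCs (right), with 1 symbol per replicate number. Psat1 lies below 0 and Ddit4 above 0 in all 6 pairs, whereas Trib3 lies above 0 in replicates 1 and 2 (1.51 to 2.68) and below 0 in replicate 3 (-2.25 and -1.25).

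For Trib3, the direction of the LPS difference depended on replicate 3. After LPS, CD18fl/fl BMDCs had 5.17, 8.22 and 13.9 CPM of Trib3 (chr2:152179342-152185952, minus strand), and cKO BMDCs had 3.77, 3.10 and 6.57 CPM. These levels were above the unstimulated partners in replicates 1 and 2 and below them in replicate 3. Without a block the log2 fold changes were -1.34 ± 1.32 and -0.35 ± 1.26 (edgeR adjusted p = 0.57 and 0.91). With the block they were 0.56 ± 0.93 and 1.38 ± 0.90 (edgeR adjusted p = 0.70 and 0.33). Without the unstimulated replicate 3 library they were 2.31 and 3.18, and in replicates 1 and 2 alone Trib3 rose by 1.87 ± 0.39 and 2.71 ± 0.67 (edgeR adjusted p = 0.0020 and 0.042).

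Chac1 and Asns, the targets that stood out with Trib3 in the unstimulated replicate 3 libraries, did not pass the test after LPS in any of the 3 fits, with Chac1 too low to be tested in replicates 1 and 2 of the cKO. Asns (chr6:7675169-7693254, minus strand) had 3.66, 2.34 and 6.94 CPM in LPS-treated CD18fl/fl and 3.61, 3.95 and 3.92 CPM in LPS-treated cKO BMDCs. Apart from replicate 3 of CD18fl/fl, these values lay in the range of the unstimulated replicates 1 and 2 or within about 1 CPM of it. Its log2 fold changes were -1.40 ± 0.95 and -0.76 ± 0.64 over 3 replicates (edgeR adjusted p = 0.41 and 0.56), and 0.01 ± 0.44 and 0.25 ± 0.45 in replicates 1 and 2 (edgeR adjusted p = 0.99 and 0.75). Leaving out the unstimulated replicate 3 library turned them to 0.54 and 0.34. Chac1 (chr2:119181710-119184862, plus strand) had 0.161, 0.372 and 1.07 CPM in LPS-treated CD18fl/fl and 0.770, 0.180 and 0.421 CPM in LPS-treated cKO BMDCs, from 4 to 42 reads. A difference of Chac1 between states did not pass the test, with log2 fold changes of -1.42 ± 1.26 and -0.70 ± 1.5 that turned to 0.79 and 1.47 without the unstimulated replicate 3 library.

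**Figure D4:**
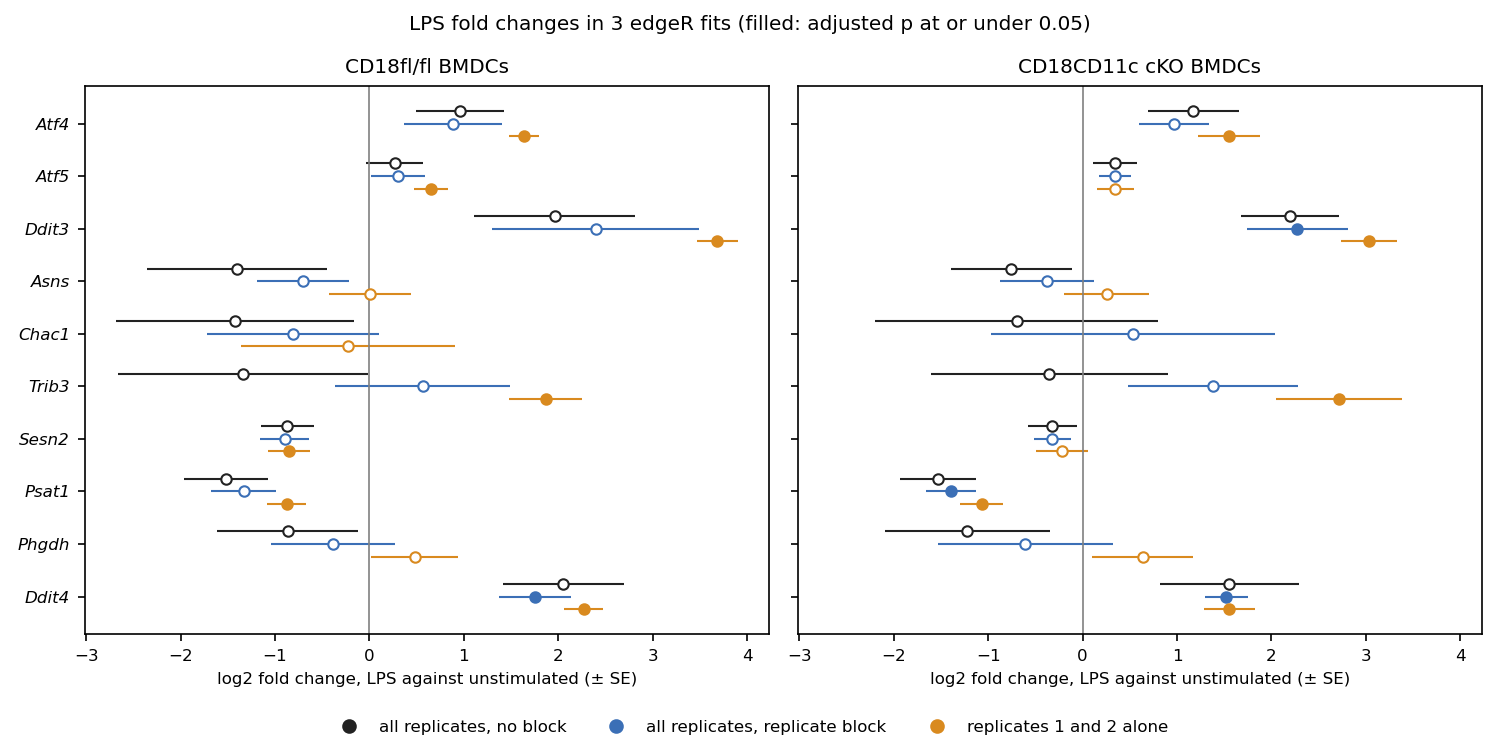
Log2 fold change of LPS-treated against unstimulated BMDCs with its SE (x axis) for each gene (y axis) in 3 edgeR fits, in CD18fl/fl (left) and CD18CD11c cKO BMDCs (right). Filled points passed the threshold. Ddit3, Ddit4 and Psat1 keep their direction in all 3 fits, whereas Trib3 moves from -1.34 to 1.87 (left) and from -0.35 to 2.71 (right). Chac1 was not tested in replicates 1 and 2 of the cKO.

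The serine synthesis genes were split. Psat1 (chr19:15882042-15924701, minus strand) encodes phosphoserine aminotransferase. In CD18fl/fl BMDCs, Psat1 had 18.3, 17.7 and 51.1 CPM without and 10.0, 9.63 and 10.5 CPM with LPS. In cKO BMDCs, Psat1 had 29.2, 34.2 and 75.8 CPM without and 15.2, 17.2 and 17.4 CPM with LPS. All LPS libraries were below all unstimulated libraries of the same genotype. Psat1 differed by -1.52 ± 0.45 (edgeR adjusted p = 0.11) and -1.53 ± 0.40 (edgeR adjusted p = 0.081) on the log2 scale. With the block, it fell in cKO BMDCs (-1.40 ± 0.27, edgeR adjusted p = 0.013) and missed the threshold in CD18fl/fl BMDCs (-1.33 ± 0.34, edgeR adjusted p = 0.054). When replicates 1 and 2 alone were fitted, it fell in both, by 0.88 ± 0.21 and 1.07 ± 0.23 (edgeR adjusted p = 0.0043 and 0.028). Phgdh (chr3:98220486-98247306, minus strand), the dehydrogenase one step earlier, had pairs of both signs in each genotype. With LPS it was lower in replicate 3 of both, by -2.37 (CD18fl/fl) and -3.26 (cKO) on the log2 scale. LPS-treated CD18fl/fl BMDCs had 3.79, 7.62 and 3.74 CPM, and LPS-treated cKO BMDCs 6.32, 13.3 and 4.24 CPM. The fold changes of -0.86 ± 0.75 and -1.22 ± 0.87 (edgeR adjusted p = 0.52 and 0.48) turned to 0.48 ± 0.46 and 0.64 ± 0.54 in replicates 1 and 2 alone, and to 0.31 and 0.38 when only the unstimulated replicate 3 library was left out.

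Sesn2, the other mTORC1 inhibitor among the members, was lower after LPS in CD18fl/fl BMDCs. Sesn2 (chr4:132219343-132237812, minus strand) had 43.4, 52.0 and 38.2 CPM without and 32.7, 20.3 and 19.7 CPM with LPS in CD18fl/fl BMDCs. In cKO BMDCs, Sesn2 had 39.1, 25.98 and 33.0 CPM without and 33.5, 26.4 and 21.7 CPM with LPS. The CD18fl/fl groups did not overlap, whereas those of the cKO did. The log2 fold change was -0.87 ± 0.28 in CD18fl/fl (edgeR adjusted p = 0.13) and -0.32 ± 0.26 in cKO BMDCs (edgeR adjusted p = 0.54). In replicates 1 and 2 alone, Sesn2 fell by 0.85 ± 0.22 in CD18fl/fl BMDCs (edgeR adjusted p = 0.0081). In cKO BMDCs the value was -0.22 ± 0.28 (edgeR adjusted p = 0.63).

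Whether the LPS response depended on the genotype was tested by the interaction of both in all 12 libraries. 0 of 10 members and 0% of all genes passed the edgeR test, be it without the block, with it (0%) or in replicates 1 and 2 alone (0%). At an unadjusted p under 0.05 there were 0 members without the block, and DESeq2 called 0. The lowest unadjusted p without the block was 0.138, for Sesn2, whose LPS difference was higher by 0.61 ± 0.38 in cKO than in CD18fl/fl BMDCs (edgeR adjusted p = 0.9999). SEs of the other members ranged from 0.38 (Atf5) to 2.11 (Chac1), so the intervals were wide.

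Markers of other cells differed between LPS-treated and unstimulated libraries, too. Of 12 macrophage markers, 0 rose and 4 fell in CD18fl/fl, and 1 rose and 5 fell in cKO BMDCs (edgeR without block). Their summed level was 2017 to 2344 CPM without and 1172 to 1396 CPM with LPS in CD18fl/fl, and 1857 to 2451 CPM and 569 to 948 CPM in cKO BMDCs. Cd163 had 0 reads in both LPS-treated groups. For B cell markers, 0 of 6 passed in either genotype by edgeR without the block, where 0 had an unadjusted p under 0.05, and DESeq2 called 0. With the block edgeR called 3 lower in each genotype, and in replicates 1 and 2 alone 5 in CD18fl/fl and 4 in cKO BMDCs. Their sums were 3.07 to 421 CPM without and 3.58 to 57.0 CPM with LPS in CD18fl/fl, and 1.82 to 347 CPM and 1.94 to 73.7 CPM in cKO BMDCs. Neutrophil markers summed to 161 to 1720 CPM without and 83.8 to 115 CPM with LPS in CD18fl/fl, and to 110 to 446 CPM and 64.6 to 114 CPM in cKO BMDCs. Without the block, edgeR called 1 of 8 lower in CD18fl/fl and 1 of 9 in cKO BMDCs, DESeq2 called 5 and 3, and replicates 1 and 2 alone gave 11 of 12 and 4 of 10. T and NK cell markers summed to 10.3 to 31.3 CPM without and 1.70 to 4.39 CPM with LPS in CD18fl/fl, and to 3.93 to 35.2 CPM and 2.52 to 4.25 CPM in cKO BMDCs, where edgeR without the block called 0 of 4 and 0 of 3, with 1 at an unadjusted p under 0.05 in each, and DESeq2 called 3 and 2 lower. Proliferation markers summed to 44.8 to 112 CPM without and 31.1 to 54.6 CPM with LPS in CD18fl/fl, where replicate 3 was higher with LPS. In cKO BMDCs they summed to 80.8 to 286 CPM without and 31.8 to 60.7 CPM with LPS. Mast cell and basophil markers summed to 43.9 to 86.7 CPM and 14.3 to 41.1 CPM in CD18fl/fl, and to 37.4 to 169 CPM and 22.1 to 121 CPM in cKO BMDCs. The part of these markers in the LPS differences of the members was not tested.

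To compare the genotypes, cKO and CD18fl/fl libraries were set against each other within each state. Psat1 was higher and Trib3 and Atf5 were lower in the cKO library of every same-numbered pair, in both states, and Ddit4 was lower in all 3 pairs after LPS. The share of all genes that kept their sign in every pair was not counted. Over 3 libraries per group and without a block, 0 of 10 members passed the edgeR test in either state, as did 0% of all genes in unstimulated and 0% in LPS-treated BMDCs. At an unadjusted p under 0.05 there were 0 members in unstimulated and 1 in LPS-treated BMDCs, and 2159 of 12876 and 1212 of 12441 of all genes. DESeq2 called 0 members in both, and 509 of 12571 and 153 of 11306 of all genes. With the replicate block, edgeR called 2 members in unstimulated (20.2% of all genes) and 1 in LPS-treated BMDCs (10.1%). Replicates 1 and 2 alone gave 1 of 9 tested members (10.6% of all genes) and 0 of 10 (4.22%). In these fits 2 and 4 members had an unadjusted p under 0.05, as had 4131 of 13068 and 2979 of 12390 of all genes. The shares of members called lay near those of all genes. Levels of the 2 genotypes did not overlap for 0 members in unstimulated (24.8% of all genes) and 2 in LPS-treated BMDCs (17.6%), namely Atf5 and Psat1. Summed levels of some markers of other cells also differed between the genotypes, although no gene passed the edgeR test without the block. Macrophage markers summed to 1172 to 1396 CPM in LPS-treated CD18fl/fl and to 569 to 948 CPM in LPS-treated cKO BMDCs. Without LPS their sums overlapped. Proliferation markers were higher in the cKO of each unstimulated pair, at 189, 80.8 and 286 CPM against 112, 50.6 and 44.8 CPM, but not of each LPS-treated pair. Erythroid markers were higher in the cKO of every pair, at 1.30 to 23.6 CPM against 0.450 to 1.83 CPM over both states. In unstimulated BMDCs neutrophil markers summed to 1720, 527 and 161 CPM in CD18fl/fl and 338, 446 and 110 CPM in cKO replicates 1, 2 and 3. All 10 tested had a negative fold change (median -2.14 on the log2 scale). edgeR called 0 of them without the block (0 at an unadjusted p under 0.05), 2 lower with it and 1 of 13 lower in replicates 1 and 2 alone, and DESeq2 called 0. After LPS the neutrophil sums were 92.9, 83.8 and 115 CPM in CD18fl/fl and 106, 114 and 64.6 CPM in cKO BMDCs, with pairs of both signs. Mast cell and basophil sums were higher in the cKO of each LPS-treated pair, with both signs without LPS. The part of these markers in the genotype differences of the members was not tested.

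Psat1 was 0.67, 0.95 and 0.57 higher in cKO BMDCs on the log2 scale in the unstimulated pairs 1, 2 and 3, and 0.60, 0.84 and 0.72 higher in the LPS-treated pairs. All 6 differences had the same sign and a similar size. In unstimulated BMDCs, the fitted difference was 0.75 ± 0.54 (edgeR adjusted p = 0.52) and passed with the block (0.78 ± 0.15, edgeR adjusted p = 0.012) and in replicates 1 and 2 alone (0.87 ± 0.19, edgeR adjusted p = 0.038). In LPS-treated BMDCs, it was 0.70 ± 0.23 (edgeR adjusted p = 0.44) and missed the threshold with the block (0.70 ± 0.18, edgeR adjusted p = 0.051). Phgdh, the other serine synthesis gene, was higher in the cKO in 5 of 6 pairs, but by 0.18 to 1.76, with replicate 2 of unstimulated BMDCs at -0.69. Its differences of 1.01 ± 1.04 and 0.62 ± 0.52 did not pass (edgeR adjusted p = 0.67 and 0.75), and the former turned to -0.58 without replicate 3 of unstimulated cKO BMDCs.

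Trib3 was lower in cKO BMDCs in all pairs, by 1.62, 1.97 and 2.07 without and by 0.45, 1.39 and 1.07 with LPS on the log2 scale. The groups themselves overlapped in both states. Without a block, the difference in unstimulated BMDCs was -1.97 ± 1.81 (edgeR adjusted p = 0.63), which turned to 1.65 when replicate 3 of CD18fl/fl alone was left out. With the block, the difference of -1.93 ± 0.21 passed (edgeR adjusted p = 0.0031). After LPS, the values were -1.04 ± 0.49 without (edgeR adjusted p = 0.56) and -1.01 ± 0.28 with the block (edgeR adjusted p = 0.067). In replicates 1 and 2 alone, the differences of -1.85 ± 0.73 and -0.99 ± 0.38 did not pass (edgeR adjusted p = 0.14 and 0.15). Unstimulated replicates 1 and 2 had 64 and 75 reads of Trib3 in CD18fl/fl and 15 and 13 reads in cKO BMDCs.

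**Figure D5:**
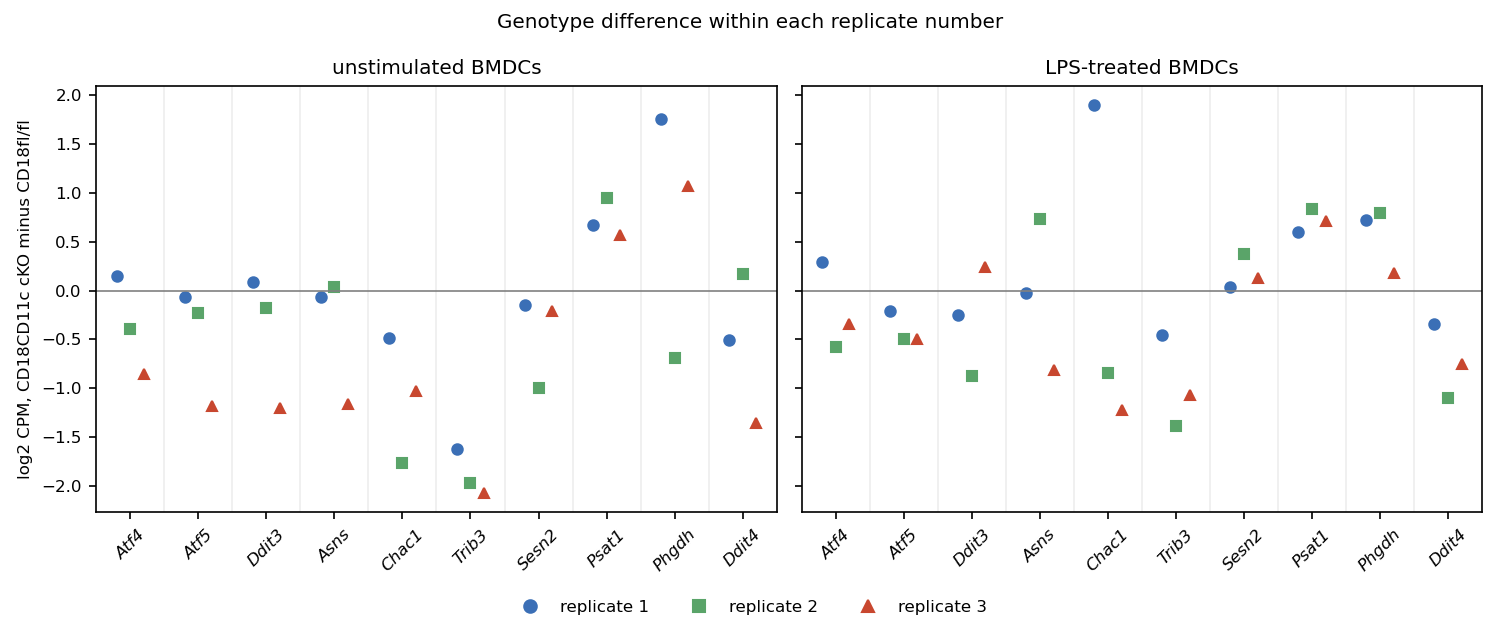
Log2 CPM of the CD18CD11c cKO minus the CD18fl/fl library of the same replicate number (y axis) for each gene (x axis), in unstimulated (left) and LPS-treated BMDCs (right), with 1 symbol per replicate number. Psat1 lies above 0 and Trib3 and Atf5 lie below 0 in all 6 pairs. Sesn2 lies below 0 in the 3 unstimulated and above 0 in the 3 LPS-treated pairs.

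Among the transcription factors, Atf5 was lower in the cKO by 0.06 to 1.18 (unstimulated) and by 0.20 to 0.50 (LPS) on the log2 scale, with fitted differences of -0.47 ± 0.26 and -0.42 ± 0.24 (edgeR adjusted p = 0.40 and 0.64). Neither passed with the block. Atf4 differed by -0.34 ± 0.27 and -0.15 ± 0.61 (edgeR adjusted p = 0.57 and 0.96), with replicate 1 higher and replicates 2 and 3 lower in the cKO in both states. For Ddit3, the differences were -0.70 ± 0.75 and -0.49 ± 0.62 (edgeR adjusted p = 0.69 and 0.85), and pairs of both signs occurred in each state. Leaving out replicate 3 of unstimulated CD18fl/fl BMDCs turned the difference of Ddit3 to 0.56, that of Asns from -0.80 ± 1.03 to 1.10 and that of Chac1 from -0.94 ± 1.65 to 1.24.

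Ddit4 was lower in the cKO after LPS, by 0.34, 1.10 and 0.75 in pairs 1, 2 and 3 on the log2 scale. The difference was -0.78 ± 0.79 without (edgeR adjusted p = 0.81) and -0.76 ± 0.18 with the block (edgeR adjusted p = 0.041), where it passed, and -0.78 ± 0.24 in replicates 1 and 2 alone (edgeR adjusted p = 0.094). In unstimulated BMDCs, its difference of -0.28 ± 0.57 (edgeR adjusted p = 0.85) turned to 0.17 without replicate 3 of the cKO. Sesn2 differed by -0.39 ± 0.23 without and 0.14 ± 0.29 with LPS (edgeR adjusted p = 0.43 and 0.92), the latter turning to -0.12 when libraries were scaled by size alone.

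Genes upstream and beside the members were then considered by lists. 36 other ATF4 targets were listed, and 31 of them were tested for LPS in CD18fl/fl and 32 in cKO BMDCs. Of these, 4 rose and 1 fell in CD18fl/fl, and 3 rose and 0 fell in cKO BMDCs, and the list medians were 0.33 and 0.36 on the log2 scale, against -0.02 and -0.01 over all genes. Of all genes tested, 263 rose and 233 fell of 12744 in CD18fl/fl, and 283 rose and 223 fell of 12687 in cKO BMDCs. Hmox1 (heme oxygenase 1), also a target of NRF2, rose by 3.01 ± 0.44 in CD18fl/fl and 2.59 ± 0.46 in cKO BMDCs (edgeR adjusted p = 0.020 and 0.034). Slc7a11, the cystine transporter subunit, rose by 1.62 ± 0.34 and 1.49 ± 0.27 (edgeR adjusted p = 0.049 and 0.036). Nupr1, a stress-induced chromatin protein, and Sqstm1, an autophagy receptor, rose in CD18fl/fl BMDCs (2.68 ± 0.49 and 1.61 ± 0.29, edgeR adjusted p = 0.037 for each), and Atf3, a bZIP repressor of the same pathway, rose in cKO BMDCs (2.17 ± 0.45, edgeR adjusted p = 0.046). Whether these differ between the genotypes is given by the interaction test above, which no gene passed by edgeR.

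Amino acid transporters had 1 gene that rose and 2 that fell among 22 tested in CD18fl/fl BMDCs, and 1 each in cKO BMDCs. The transporter that rose in each genotype was Slc7a11, counted above among the ATF4 targets. Slc1a5, a glutamine transporter, fell by 2.28 ± 0.35 and 2.40 ± 0.46 (edgeR adjusted p = 0.025 and 0.042). Slc36a1 fell in CD18fl/fl BMDCs (-1.54 ± 0.32, edgeR adjusted p = 0.049). In the serine, glycine and one-carbon list, 1 gene rose and 1 fell in each genotype, of 23 tested in CD18fl/fl and 22 in cKO BMDCs. Among these were Tyms (1.63 ± 0.31) and Ahcy (-1.05 ± 0.20) in CD18fl/fl and Gcsh (-1.63 ± 0.31) in cKO BMDCs. The list median was -0.22 and -0.63. Of the other nonessential amino acid synthesis genes, Got2 fell in cKO BMDCs (-1.15 ± 0.23, edgeR adjusted p = 0.045), with 16 tested in each genotype.

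Of 23 genes for cytosolic aminoacyl-tRNA synthetases, 0 passed in either genotype by edgeR without the block, with a median of -0.53 and -0.49. At an unadjusted p under 0.05 there were 7 in each, DESeq2 called 3 and 1 lower, and with the block edgeR called 4 and 7 lower. In the eIF2α kinase, phosphatase and eIF2B list, Impact, an inhibitor of the amino acid sensor GCN2, rose in CD18fl/fl BMDCs (1.19 ± 0.23, edgeR adjusted p = 0.041), and 0 of 21 passed in cKO BMDCs, with 3 at an unadjusted p under 0.05 and 1 called by DESeq2. Among ATF6 and XBP1 chaperones, Herpud1 fell in CD18fl/fl (-1.08 ± 0.22) and Dnajb9 rose in cKO BMDCs (1.35 ± 0.23, edgeR adjusted p = 0.032), of 27 tested in each. Herpud1 was also the ATF4 target that fell in CD18fl/fl BMDCs. Sesn1, the relative of Sesn2, fell in CD18fl/fl BMDCs (-1.58 ± 0.29, edgeR adjusted p = 0.039) as the 1 gene called among 33 mTORC1 inputs, and also as the 1 called among 6 Tribbles, CHAC and RTP801 relatives. Of 26 bZIP partners of ATF4, 1 rose and 3 fell in CD18fl/fl (among them Batf up, Cebpa and Fos down) and 1 rose and 2 fell in cKO BMDCs (among them Atf3 up and Fos down). 0 of 11 mitochondrial stress relay and protease genes passed in either genotype by edgeR without the block, with 1 at an unadjusted p under 0.05 in each and 0 called by DESeq2.

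Between the genotypes, 0 genes of these 11 lists passed by edgeR without the block in either state. Among the other ATF4 targets, 3 in unstimulated and 4 in LPS-treated BMDCs had an unadjusted p under 0.05, and DESeq2 called 0 and 1. With the replicate block, more of the called targets were lower than higher in cKO BMDCs, 8 against 1 of 32 in unstimulated and 7 against 2 of 32 in LPS-treated BMDCs. Amino acid transporters had 6 lower and 0 higher of 21, and 5 lower and 0 higher of 22, respectively. The lists share genes, so these counts are not separate results. Slc7a11, Slc3a2, Slc7a5, Slc6a9 and Slc38a2 were listed both as targets and as transporters. Atf3, Cebpb, Cebpd, Cebpg and Jdp2 were listed both as targets and as bZIP partners. Of the bZIP partners, 10 were lower and 2 higher of 26 in unstimulated BMDCs, and 2 each of 27 after LPS. Of the serine, glycine and one-carbon genes, 1 was lower and 2 were higher of 23 in unstimulated BMDCs, and 0 and 1 of 22 after LPS. Of the ATF6 and XBP1 chaperones, 3 were lower and 7 higher of 28 in unstimulated BMDCs, and 3 and 2 of 27 after LPS. Of the aminoacyl-tRNA synthetases, 3 were lower and 3 higher of 23, and 0 and 3 of 23 after LPS. In the eIF2α list these were 4 and 4 of 21, and 2 and 4 of 21, and in the mTORC1 inputs 4 and 4 of 33, and 1 and 3 of 33. Of the 3 remaining lists, none had more than 1 gene called in a direction. Over all genes, the block called 1555 higher and 1051 lower in unstimulated and 869 higher and 393 lower in LPS-treated cKO BMDCs.

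Lastly, for each member the 2 genes were sought whose log2 CPM, centered on their own mean, followed it most closely over the 12 libraries, out of 13752 genes. For Psat1 these were Mrto4 and Ccnh, with a mean absolute difference of 0.21 and 0.27 on the log2 scale, compared with an SD of Psat1 of 0.93. For Ddit4 they were Ly9 and F11r (0.29 for each, SD of Ddit4 1.37), for Sesn2 Thoc3 and Tmem186 (0.14 and 0.17) and for Atf5 Ormdl3 and Aar2 (0.17 for each). Atf4 was most like Gm7072 and Pard6a (0.23 for each), Ddit3 like Ptgr1 and Prdx6 (0.46 for each), and Asns like Plpp5 and Elovl7 (0.35 and 0.36). Chac1 was most like Igfbp6 and Rps6ka2 (0.50 and 0.58), Trib3 like B3galt2 and Slco4a1 (0.58 and 0.68) and Phgdh like C130050O18Rik and Bag2 (0.56 for each). None of these neighbors was itself a member.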

How the data were processed

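The authors sequenced poly(A)-selected RNA of MHCII+ BMDCs as single-end reads and counted them per gene in CLC Genomics Workbench. They deposited raw counts, as total gene reads (used here) and unique gene reads, without normalization and with 1 library per table. Between 95.1% and 96.2% of the total gene reads were unique. The submitters' processing notes name GRCm38, whereas the paper's methods name GRCm39, and the gene regions in the tables match GRCm39 (GENCODE annotation), so coordinates are given on GRCm39. The paper describes overnight stimulation, the labels 24 h. The labels pair replicate numbers across groups without saying what a number shares.

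The counts were tested with edgeR 4.0.16 in R 4.3.3 (quasi-likelihood test, TMM, filterByExpr with a minimum count of 10, Benjamini-Hochberg adjustment over all genes tested, threshold 0.05), on the 6 libraries of a comparison and, for the interaction, on all 12. The SE is the log2 fold change divided by the square root of F. Log2 CPM used a prior count of 2. The procedure was run on simulated counts. Their replicate effect was random for each gene and equal in all groups, so they do not cover a replicate 3 set apart differently in each state. Correlations across genes of the deviations from group means were 0.26 to 0.72 for each same-numbered pair. Replicate 3 deviated against replicates 1 and 2, which also correlated with each other at 0.15 to 0.33 and, between the CD18fl/fl states, as closely as the pair numbered 2 (0.28 against 0.26). Every same-numbered correlation was over 0.1, so the replicate number, taken from the titles, was used as a block. Among the most alike libraries, chi-squared per degree of freedom was 46.6, so none was a copy of another. Alternatives were DESeq2 1.42.0, RLE factors, library size scaling, no filter, a minimum count of 50, unique gene reads, the block with and without an exon length offset (lowess, span 0.3), all 12 libraries, and each library left out. Replicates 1 and 2 alone were added after the values were seen.

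The 10 members, 11 pathway lists and 8 cell marker lists were chosen with earlier results of these data known. Named beside the members were up to 3 genes per list, direction and genotype with the smallest p among those called for LPS, and the 2 genes most like each member. A few listed genes are not reported here. Promoter windows are those of RefSeq.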

Additional observations from a re-analysis of the deposited data

Results flagged for a closer look

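The genotype difference of Sesn2 had opposite signs in both states. In the unstimulated pairs 1, 2 and 3, cKO BMDCs were at -0.15, -0.999 and -0.21 relative to CD18fl/fl BMDCs on the log2 scale, and in the LPS-treated pairs at 0.03, 0.37 and 0.13. All 3 pairs thus went one way without and the other way with LPS. The share of all genes that did so was not counted. The interaction, which tests this difference of 0.61 ± 0.38 directly, did not pass (unadjusted p = 0.138, edgeR adjusted p = 0.9999), with 0.64 ± 0.30 under the replicate block (edgeR adjusted p = 1.0).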

How the results depend on the processing

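Chac1 had the fewest reads, with 0 to 141 per library. DESeq2, RLE factors, unique gene reads, no filter and a minimum count of 50 reversed no member's fold change in the 4 comparisons of 2 groups. In the interaction 8 of 10 members were positive, and 7 of 10 under DESeq2 and RLE factors. With the higher minimum, 7 of the 9 members tested were positive. Library size scaling moved the median of all genes to -0.44 and -0.37 (genotype, without and with LPS) and to -0.32 and -0.23 (LPS, CD18fl/fl and cKO), and reversed Sesn2 between LPS-treated genotypes (-0.12) and Atf5 for LPS in CD18fl/fl BMDCs (-0.077). The cause of the other changes was not tested.

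Genes called in unstimulated genotypes numbered 2606 with the replicate block, 1566 with the block and exon length offset, 509 by DESeq2, 19 on 12 libraries and 1383 in replicates 1 and 2 alone, and members 2, 3 (adding Ddit3), 0, 0 and 1. For LPS-treated genotypes, these were 1262, 861, 153, 45 and 523 genes and 1, 2 (adding Psat1), 0, 0 and 0 members, and 1 gene without the filter. For LPS in CD18fl/fl, they were 1627, 1702, 1795, 1068 and 6140 genes and 1, 1, 2 (Psat1, Ddit4), 0 and 7 members. For LPS in cKO, they were 2560, 2667, 1535, 983 and 2049 genes and 3, 3, 2 (Ddit3, Psat1), 0 and 5 members, and 805 genes and 2 members (Ddit3, Psat1) without the filter. DESeq2 called 1 gene in the interaction.

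The replicate block reversed Trib3 for LPS (0.56 in CD18fl/fl and 1.38 in cKO; 0.55 and 1.46 with the length offset) and Chac1 for LPS in cKO (0.53 and 0.57), and changed no other call than those given. Replicates 1 and 2 alone reversed Ddit3 (0.038) and Asns (0.041) in unstimulated and Asns (0.30) and Chac1 (0.80) in LPS-treated genotypes, Asns (0.0086), Trib3 (1.87) and Phgdh (0.48) for LPS in CD18fl/fl, and Asns (0.25), Trib3 (2.71) and Phgdh (0.64) for LPS in cKO.

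Leaving out 1 library at a time gave 0 to 3268 genes and 0 to 2 members for LPS in CD18fl/fl, 0 to 1033 genes and 0 to 2 members for LPS in cKO, and 0 to 1 genes between LPS-treated genotypes. Fold changes ranged, in unstimulated genotypes, from -1.24 to 0.56 (Ddit3), -1.89 to 1.10 (Asns), -3.10 to 1.24 (Chac1), -5.50 to 1.65 (Trib3), -0.58 to 2.16 (Phgdh) and -0.83 to 0.17 (Ddit4). In LPS-treated genotypes, they ranged from -0.74 to 0.23 (Atf4), -0.47 to 0.31 (Asns), -0.84 to 0.74 (Chac1) and -0.042 to 0.42 (Sesn2). For LPS in CD18fl/fl, they ranged from -1.93 to 0.54 (Asns), -2.43 to 0.79 (Chac1), -1.89 to 2.31 (Trib3) and -1.32 to 0.31 (Phgdh), and in cKO from -1.10 to 0.34 (Asns), -1.26 to 1.47 (Chac1), -0.90 to 3.18 (Trib3) and -1.77 to 0.38 (Phgdh). The highest counts of genes came without LPS-treated replicate 3 of either genotype, and leaving out replicate 1 or 2 of any CD18fl/fl group brought the LPS count there to 0.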

Other observations

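Some listed ATF4 targets, whose values in each library the text has not given, also stood apart in the unstimulated replicate 3 libraries. They were picked out here after their values were seen, and are given without a test. Slc7a5, the large neutral amino acid transporter, had 8.66, 9.33 and 95.4 CPM in unstimulated CD18fl/fl and 5.69, 7.00 and 45.9 CPM in unstimulated cKO BMDCs. Slc7a5 was highest in replicate 3 after LPS as well, with 7.61, 9.97 and 50.7 CPM in CD18fl/fl and 7.21, 6.29 and 42.1 CPM in cKO BMDCs. Aldh18a1, an enzyme of proline synthesis, had 5.91, 11.2 and 25.7 CPM in unstimulated CD18fl/fl and 7.87, 6.47 and 25.8 CPM in unstimulated cKO BMDCs. Aldh1l2, a mitochondrial folate enzyme, had 0 reads in replicates 1 and 2 of both unstimulated groups, and 1.82 (CD18fl/fl) and 0.69 CPM (cKO) in replicate 3. Mthfd2, a target of the same one-carbon pathway, went the other way, with 239, 203 and 108 CPM in unstimulated CD18fl/fl and 185, 188 and 86.3 CPM in unstimulated cKO BMDCs. Atf3, which responds to ATF4 and to TLR ligands, was also lowest in replicate 3 of every group, at 81.5 CPM in unstimulated and 346 CPM in LPS-treated CD18fl/fl BMDCs, where replicates 1 and 2 had 227 and 206 CPM and 1061 and 1302 CPM.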
